A study of Rattus norvegicus with 24 samples.

Results

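Proteasome subunit genes were taken as the probes with a value on at least 1 array whose only gene symbol in the platform annotation begins with Psma, Psmb, Psmc, Psmd, Psme or Psmf and a number. The rule found 11 of the 1561 probes with a value, 1 for each of 11 genes. They were Psma1, Psma2 and Psma4 of the alpha ring, Psmb1 and Psmb4 of the beta ring, the ATPase subunits Psmc1, Psmc2, Psmc4 and Psmc5, and the other regulatory subunits Psmd1 and Psmd4. A further probe carried the symbols of Psma3 and of the related gene Psma3l together and was not a member.

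The proteasome degrades proteins that carry a ubiquitin chain. Its barrel-shaped core is built of outer alpha rings and inner beta rings, and the proteolytic sites lie on some of the beta subunits. A regulatory cap receives the ubiquitin chain, unfolds the protein with a ring of ATPases and feeds it into the core. In inflamed tissue, interferon can replace the catalytic beta subunits by the immunoproteasome subunits, which favour peptides for display on class I molecules. None of the standard catalytic subunits (Psmb5, Psmb6, Psmb7), of the immunoproteasome subunits (Psmb8, Psmb9, Psmb10) or of the activator subunits Psme1 and Psme2 was among the members.

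The samples were 24 hybridisations of rat kidney total RNA, with the renal medulla named in the series title. Each hybridisation paired 2 RNAs labelled with Cy5 and Cy3. Strain SS is the Dahl salt-sensitive rat, and strain 13 is the SS rat with chromosome 13 of another strain, as is known of the study. The 4 comparisons were HS (read as high salt) against LS (low salt) at 2 weeks in strain 13, the same diets in SS, and strain 13 against SS on LS and on HS. All groups thus share the SS background. The labels give no age and do not say whether animals were pooled. There were 3 replicates a comparison, and each replicate had a forward and a dye-swap array, which were averaged. Nothing in the labels says that replicates were separate animals, so the p-values rest on a spread that may be technical. In the SS diet comparison 5 titles give no strain, and the remaining title conflicts with its channel text, by which it was placed.

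Values are deposited log ratios whose log base is not given, so no fold is stated. Positive values are read as HS above LS and as strain 13 above SS, which the channel names make likely. All signs would turn together if that reading were wrong. Arrays held 726 to 1402 values (median 1202.5), of which 7 to 11 were of the 11 subunits, and their number limits the precision. Of 132 replicate values of the subunits, 117 came from both orientations, 14 from 1 orientation and 1 was missing. Umod and Slc12a1 of the thick ascending limb, Aqp3 of the collecting duct, and Lrp2 and Kap of the proximal tubule had values on 24 arrays each, while a ratio gives no level and Aqp2 had no named probe with a value. In such bulk RNA, fewer cells of a type and less RNA per cell cannot be told apart. None of the 11 genes lies on chromosome 13 (0 of 11), and they are spread over 8 chromosomes.

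No subunit passed the test between diets or strains. By limma with Benjamini-Hochberg adjustment over all probes tested, 0 of 11 subunits passed an adjusted p of 0.05 in any of the 4 comparisons. The share of all probes that passed was 0% in the diet comparison of strain 13, 2.82% in that of SS, 0% for the strains on LS and 6% on HS. Without adjustment, 0, 1, 4 and 1 of the 11 had a p below 0.05 in this order, against 9.25%, 19.5%, 21.8% and 23.1% of all probes. The mean log ratios of the subunits ran from -0.22 to 0.22 over all 44 values. Taken without sign, their medians were 0.08, 0.043, 0.068 and 0.077 in the same order of comparisons, against 0.082, 0.11, 0.12 and 0.11 over all probes. The 95% interval of a mean, not adjusted for the number of probes, reached 0.12 to 0.27 to either side, so smaller differences could not be resolved. Means whose interval left out 0 still did not pass after adjustment.

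**Figure D1:**
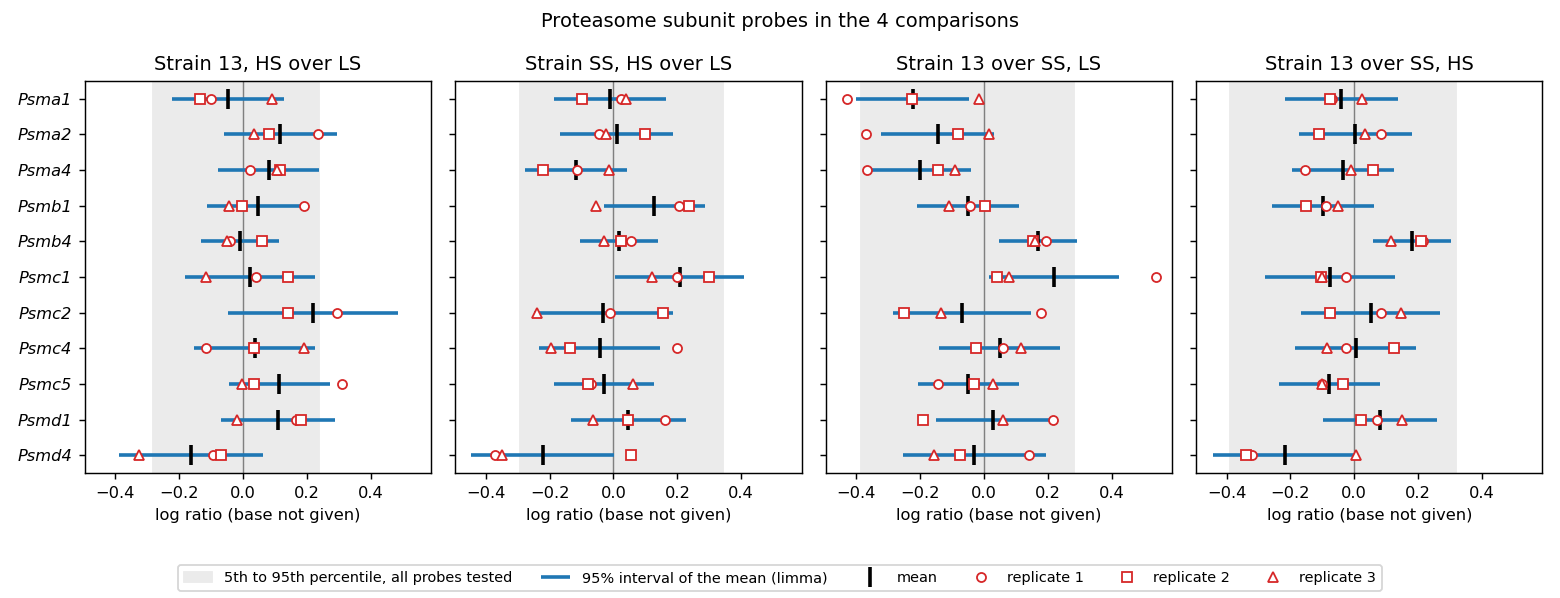
Log ratios of the 11 proteasome subunit probes (rows) in the 4 comparisons (panels), with each replicate as an open symbol, the mean as a black bar, its 95% limma interval as a blue line and the 5th to 95th percentile of the means of all probes tested in grey. All 44 means lie inside the grey bands and most intervals cross 0. Psmb4 stands to the right of 0 in all replicates of both strain comparisons.

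In strain 13, which carries the substituted chromosome, the diet comparison asks what HS changes. The median over the subunits was 0.047, against 0.012 over all 1287 probes tested, with 8 of 11 above 0. All 4 ATPase subunits had means above 0, from 0.02 to 0.22. For Psmc4 the replicate 3 value came from the forward array alone. From only the replicates with both orientations its mean was -0.04. Psmc1 ran from -0.04 to 0.09 without 1 of the replicates. Psmc2, an ATPase of the base of the cap, had 0.295 and 0.14 in replicates 1 and 2 and no value in replicate 3. Its mean was 0.22 ± 0.11 (SD, n = 2, limma adjusted p = 0.623), and the replicate 2 value came from the dye-swap array alone. Psmc5, another ATPase of that ring, had 0.31, 0.035 and -0.005, so replicate 1 stood apart from the others. Psma2, a subunit of the alpha ring, had 0.235, 0.08 and 0.035 (mean 0.12 ± 0.10, n = 3, limma adjusted p = 0.673). Psmd4, the cap subunit that binds ubiquitin chains, had -0.095, -0.07 and -0.325 (mean -0.16 ± 0.14, n = 3, limma adjusted p = 0.629). It was the lowest subunit of this comparison and was below 0 in all 3 replicates. Of the 10 subunits with 3 values, 3 were on 1 side of 0 in every replicate (2 above and 1 below), as were 31.5% of all probes.

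In SS, the strain that is salt-sensitive, the same diets gave a subunit median of -0.012, against -0.0067 over all 1310 probes. Psmc1, an ATPase of the cap, had 0.2, 0.3 and 0.12, above 0 in each replicate. Its mean was 0.21 ± 0.09 (n = 3, limma adjusted p = 0.247), and the replicate 1 value came from the forward array alone. Psmd4 had -0.37, 0.055 and -0.35, with replicate 2 on the other side of 0 (mean -0.22 ± 0.24, n = 3, limma adjusted p = 0.263). Its replicate 1 value came from the forward array alone. Psmb1, a beta subunit without a proteolytic site, had 0.205, 0.235 and -0.055 (mean 0.13 ± 0.16). Psma4, of the alpha ring, had -0.115, -0.22 and -0.015 (mean -0.12 ± 0.10). Psmc1 and Psma4 were the 2 subunits on 1 side of 0 in every replicate, while 41.6% of all probes were. Without the array of the conflicting title, 0 of 11 passed (4.68% of all probes), and the p was below 0.05 without adjustment for 4 of 11, against 24.1% of all probes. That omission leaves replicate 3 of each subunit to its forward array, so a dye effect does not cancel there. Psmd4 then had -0.35 (limma adjusted p = 0.126), with replicates 1 and 3 from forward arrays alone. From only the replicates with both orientations Psmd4 had -0.15 (limma adjusted p = 0.474).

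Between strain 13 and SS on LS, replicates of the subunits spread most (median SD 0.15, against 0.066 to 0.12 in the other comparisons). The median was -0.048, against 0.025 over all 1229 probes. All 3 alpha ring subunits had means below 0, from -0.22 to -0.14. For Psma2, the nearest of them to 0, the replicate 1 value came from the dye-swap array alone. From only the replicates with both orientations its mean was -0.03. Psma1 had -0.43, -0.225 and -0.015 (mean -0.22 ± 0.21, n = 3, limma adjusted p = 0.137). Psma4 had -0.365, -0.145 and -0.09 (mean -0.20 ± 0.15, n = 3, limma adjusted p = 0.139). Both were below 0 in each replicate and lowest in replicate 1. Psmc1 was high in replicate 1 alone, with 0.54, 0.04 and 0.08 (mean 0.22 ± 0.28, n = 3, limma adjusted p = 0.189). Psmb4, a beta subunit without a proteolytic site, had 0.195, 0.155 and 0.16, the closest replicates among these subunits (mean 0.17 ± 0.02, n = 3, limma adjusted p = 0.121). In all, 4 of 11 were on 1 side of 0 in every replicate, as were 44.1% of all probes. Replicate 1 includes the array with the fewest values of the series. Without that array the dye-swap array alone stands for replicate 1, and 1 of 11 subunits had an unadjusted p below 0.05 in place of 4, against 20.8% of all probes. Psma1 then had -0.16, Psma4 -0.12, Psmc1 0.17 and Psmb4 0.05. Fitted without the other comparisons, 0 of 11 had such a p, against 17.9% of all probes.

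On HS, the strains gave a subunit median of -0.035, against 0.018 over all 1350 probes. Psmb4 had the highest mean, with 0.215, 0.21 and 0.115 in the replicates (mean 0.18 ± 0.06, n = 3). Its limma adjusted p of 0.0887 was the lowest of any subunit in the 4 comparisons, and ran from 0.0506 to 0.543 over the alternatives. Psmd4 had -0.32, -0.34 and 0.005 (mean -0.22 ± 0.19, n = 3, limma adjusted p = 0.231), its replicate 2 value from the dye-swap array alone. Psmb1 had -0.09, -0.15 and -0.05, below 0 in each replicate (mean -0.10 ± 0.05). Psmd1, the large scaffold subunit of the cap, had 0.07, 0.02 and 0.15 (mean 0.08 ± 0.07). The means of the alpha ring subunits, below 0 on LS, lay between -0.04 and 0.00 here. Of the 11 subunits, 5 were on 1 side of 0 in every replicate (2 above and 3 below), as were 48.2% of all probes. Psmc4, the remaining ATPase, had means from -0.04 to 0.05 over the 4 comparisons.

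Psmb4 was the only subunit whose 6 strain values, 3 on each diet, were all on the same side of 0. On the arrays of LS the forward values were 0.56, 0.24 and 0.31 and the dye-swap values -0.17, 0.07 and 0.01. On those of HS the forward values were 0.22, -0.05 and 0.13 and the dye-swap values 0.21, 0.47 and 0.1. Of these 12 arrays 10 were above 0, and the forward arrays were the higher ones on LS. The strain difference averaged over both diets, a contrast chosen after these values were seen, was 0.17 with a 95% interval from 0.09 to 0.26 for Psmb4 (limma adjusted p = 0.0161). In that contrast 1 of 11 subunits passed, while 15% of all 1203 probes did, so the share was not above the background. Without adjustment the counts were 3 of 11 and 33.1%. The adjusted p was between 0.0846 and 0.16 without 1 of the replicates, and 0.143 (mean 0.11) without the LS array with the fewest values. In the diet comparisons Psmb4 had -0.01 ± 0.06 in strain 13 and 0.02 ± 0.04 in SS.

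**Figure D2:**
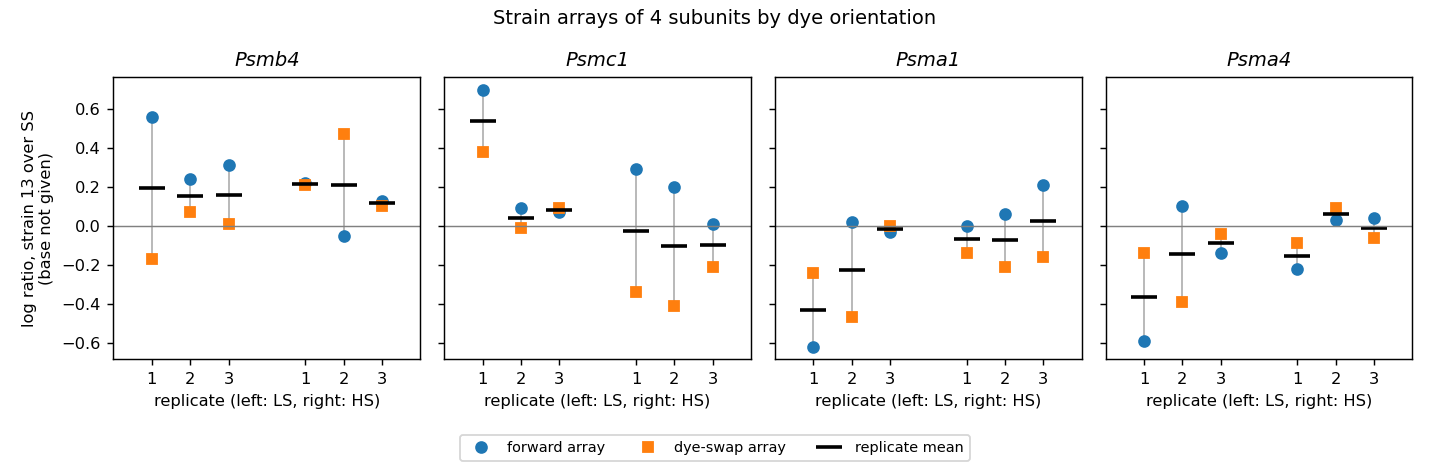
Log ratio of strain 13 over SS on each strain array for Psmb4, Psmc1, Psma1 and Psma4, by replicate on LS (left) and HS (right), with forward arrays as circles, dye-swap arrays as squares and the replicate mean as a black bar. The replicate means of Psmb4 lie between 0.115 and 0.215 on both diets, while those of Psmc1 include 0.54 in replicate 1 on LS and lie below 0 on HS.

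How far the effect of HS differs between strain 13 and SS was estimated from all 4 comparisons, and this contrast passed for 0 of 11 subunits (0.43% of all 1164 probes). Without adjustment 2 of 11 had a p below 0.05, against 15.6% of all probes. Psma4 had 0.18 (limma adjusted p = 0.259) and Psmc1 had -0.24 (limma adjusted p = 0.234), both of the same sign in all 3 replicates. Psmc1 had 0.21 on HS in SS and 0.02 in strain 13, and 0.22 between strains on LS and -0.08 on HS. Under a replicate block, 0 of 11 passed here (0.687% of all probes) and 0 of 11 for the strains on HS (2.96%). The channel names place the SS RNAs of replicate 3 in both the diet and the strain comparisons, which the fit does not model, so these values are not independent of each other.

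The sequences upstream of Psmb4, Psmc1 and Psma1 are shown because these subunits had the largest strain ratios on LS together with Psma4, the first pair above 0 and the last below. They are the 250 bases before the annotated gene start from RefSeq, build GRCr8, on the strand of the gene, with CCAAT in capitals. The positions are chr2:185134562-185134811 (minus strand) for Psmb4, chr6:125122247-125122496 (plus strand) for Psmc1 and chr1:177887858-177888107 (minus strand) for Psma1.
Psmb4: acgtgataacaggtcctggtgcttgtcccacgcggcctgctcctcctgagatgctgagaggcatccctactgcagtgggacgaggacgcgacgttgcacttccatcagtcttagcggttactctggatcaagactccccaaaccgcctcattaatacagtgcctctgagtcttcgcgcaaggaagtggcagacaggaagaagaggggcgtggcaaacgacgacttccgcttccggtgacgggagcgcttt
Psmc1: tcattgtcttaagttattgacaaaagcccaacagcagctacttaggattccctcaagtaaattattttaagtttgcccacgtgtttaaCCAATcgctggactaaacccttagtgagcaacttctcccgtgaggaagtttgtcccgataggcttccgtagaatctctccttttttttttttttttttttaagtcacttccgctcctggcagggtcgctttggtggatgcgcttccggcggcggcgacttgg
Psma1: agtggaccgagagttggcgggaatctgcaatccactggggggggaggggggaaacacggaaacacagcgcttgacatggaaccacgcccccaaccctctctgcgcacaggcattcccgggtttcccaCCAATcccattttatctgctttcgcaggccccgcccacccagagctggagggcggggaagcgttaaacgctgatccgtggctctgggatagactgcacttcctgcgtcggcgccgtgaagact
Windows of 300 bases, from 250 before to 50 after the start, matched 11 of 11 subunits and were searched on both strands for 3 motifs. CCAAT, the letters bound by NF-Y, was in 6 of 11 windows (54.5%) and in 37.5% of 33469 promoters. It began at position -162 in Psmc1 and -123 in Psma1, genes on opposite sides of 0 on LS, and was not in the window of Psmb4. TGACNNNGC, the core of the antioxidant response element at which Nfe2l1 and Nfe2l2 act, was in 1 of 11 windows (Psmd1) and in 12.1% of promoters. The core of the interferon-stimulated response element was in 1 of 11 (Psma4) and in 3.92%. A match is a description of letters in the window.

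Correlations between subunits were spread around 0. Over the 12 replicate values of the 4 comparisons, the median Pearson correlation of the 55 pairs of subunits was 0.007, against -0.0034 over 1165 probes, and 29 of the 55 were above 0. The points share comparisons and, in part, RNAs, so these are descriptions. Psmc2 and Psmd1 had the highest correlation (0.81 over 11 values), where 8 values of Psmc2 came from both orientations. The alpha ring genes Psma1 and Psma4 had 0.65, and both had their lowest value in replicate 1 of the LS strain comparison. Psma4 and Psmc1 had the lowest correlation (-0.75), with opposite values in that same replicate.

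Most subunits differed between the array orientations. The forward minus dye-swap value divided by 2, averaged over the replicates, passed for 9 of 11 subunits (limma adjusted p below 0.05, a test chosen after the values were seen), against 44% of 1118 probes. Of these 8 were above 0, where 24.4% of all probes passed in that direction. Psma2 had 0.21 ± 0.04 (SE) and was above 0 in 11 of 11 replicates measured on both arrays (limma adjusted p = 0.000106). On the HS strain arrays its forward values were 0.49, 0.37 and 0.36 and its dye-swap values -0.32, -0.59 and -0.29. These did not overlap, and their mean was 0.00. Psmb1 had 0.17 ± 0.04, Psmc4 0.18 ± 0.04 and Psmc2 0.20 ± 0.06. In 3 of 11 subunits (Psma2, Psmb1 and Psmc4) this dye component was larger in size than each of the 4 comparison means. Psmd4 ran the other way, with -0.17 ± 0.04, and below 0 in 7 of 9 replicates. Psma4 (-0.03 ± 0.04) and Psmd1 (0.05 ± 0.04) did not pass. From dye-swap arrays alone, 3 of 11 subunits would have passed as lower in strain 13 on HS (31.7% of all probes passed), and from forward arrays alone Psma2 would have passed as higher, at 0.41 (9.95% of all probes passed). Forward arrays alone also passed Psmd4 as lower on HS in SS, at -0.48 (9.59% of all probes), and Psmb4 as higher in strain 13 on LS, at 0.37 (6.6%). They passed 0 subunits for the diets in strain 13 (1.27%), and dye-swap arrays passed 0 there (0.247%), in SS (5.25%) and for the strains on LS (4.41%).

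**Figure D3:**
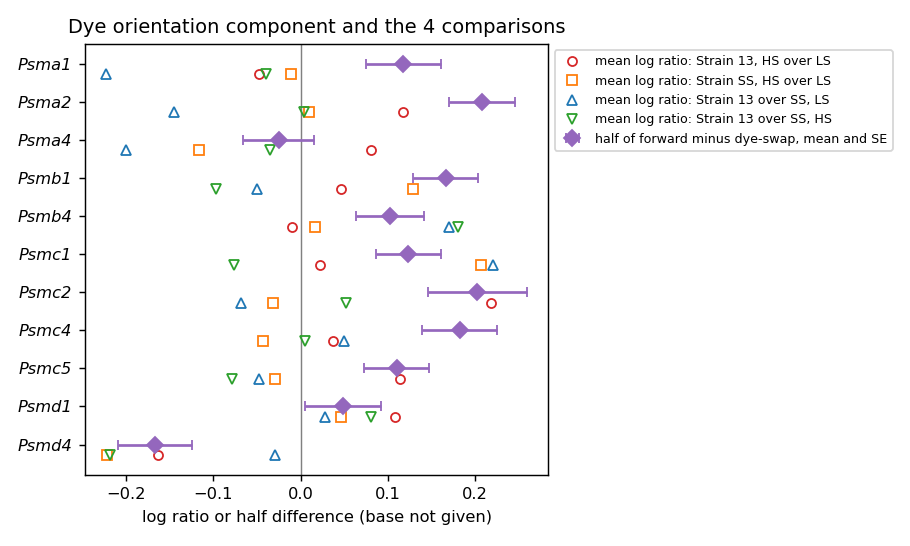
Forward minus dye-swap log ratio divided by 2 for each subunit (diamonds, mean and SE over up to 12 replicates) above its mean log ratio in each of the 4 comparisons (open symbols). The dye component of Psma2, 0.21, exceeds each of its comparison means, whereas Psma4 has -0.03 and Psmd4 has -0.17.

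Genes that act with the proteasome were examined as lists. A list of 61 genes held enzymes and carriers of ubiquitin and related modifiers together with regulators such as the transcription factor Nfe2l2. Of these 10 were measured, and 0 passed in any of the 4 comparisons. Of all probes 0% and 2.82% passed for the diets in strain 13 and SS, and 0% and 6% for the strains on LS and HS. Without adjustment 1, 1, 5 and 0 of the 10 had a limma p below 0.05 in this order. The shares of all probes were 9.25%, 19.5%, 21.8% and 23.1%. The 5 on LS had means on both sides of 0. The list medians were 0.04 and 0.06 for the diets in strain 13 and SS, and -0.033 and -0.0042 for the strains on LS and HS. Ube2g1, a ubiquitin-conjugating enzyme, had -0.51, -0.375 and -0.46 on LS (mean -0.45 ± 0.07, n = 3, limma adjusted p = 0.0904). Cdc34, another conjugating enzyme, had 0.5, 0.245 and 0.03 there (mean 0.26 ± 0.24, n = 3, limma adjusted p = 0.164). Nfe2l2, which acts in the antioxidant response, had -0.23, -0.24 and -0.1 on HS in SS (mean -0.19 ± 0.08, n = 3, limma adjusted p = 0.199). Of 8 measured chaperones 0 passed in any comparison, against the same shares of all probes, with medians from -0.045 to 0.025. The lowest was Hspa1l in strain 13, at -0.4 in both replicates with a value (limma adjusted p = 0.403).

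Of 31 antigen presentation and interferon genes 12 were measured and 11 could be tested in the SS diet comparison. All 11 had means above 0, with a median of 0.27, against -0.0067 over all 1310 probes. Of the 11 genes 1 rose, while 2.82% of all probes passed in this comparison. This was RT1-DMa, which loads peptides onto class II molecules, with 0.35, 0.335 and 0.355 (mean 0.35 ± 0.01, n = 3, limma adjusted p = 0.0477, close to the threshold). B2m, the light chain of class I molecules, had 0.215, 0.415 and 0.6 (mean 0.41 ± 0.19, n = 3, limma adjusted p = 0.0925). The list median was 0.11 in strain 13, where 10 of 11 means were also above 0, with 0 of 11 passing (0% of all probes). In the same SS comparison 2 of 3 leukocyte markers had means above 0 (median 0.18, 0 passed) and 3 of 4 fibroblast markers rose (median 0.59). Of the smooth and skeletal muscle markers 2 of 3 rose (median 0.565). All 3 thick ascending limb and distal tubule markers had means below 0 (median -0.25, 0 passed). In the remaining marker lists 0 passed. The part of these markers in the values of the antigen presentation list was not tested. A list of 25 lysosomal genes and proteases outside the proteasome, in which the membrane proteins Lamp1 and Lamp2 are no proteases, had 13 measured. On HS the cathepsin Ctsl was lower in strain 13, with -0.49, -0.325 and -0.34 (mean -0.39 ± 0.09, n = 3, limma adjusted p = 0.0236), and Ctse was higher, with 0.935 and 0.9 in the replicates measured (mean 0.92 ± 0.02, n = 2, limma adjusted p = 0.0236). The other 10 tested there did not pass, while 6% of all probes did. In each of the other comparisons 0 of 11 passed, against 0% to 2.82% of all probes. Between strains on HS, 2 of 9 proximal tubule markers fell (median -0.42) and 3 of 4 collecting duct markers rose (median 0.36), while the 11 subunits lay between -0.22 (Psmd4) and 0.18 (Psmb4). There 1 of 3 thick ascending limb and distal tubule markers rose, as did the only endothelium marker measured. In the other direction, 1 of 4 fibroblast, 1 of 4 muscle and 1 of 3 leukocyte markers fell. The part of these markers in the subunit values was not tested.

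**Figure D4:**
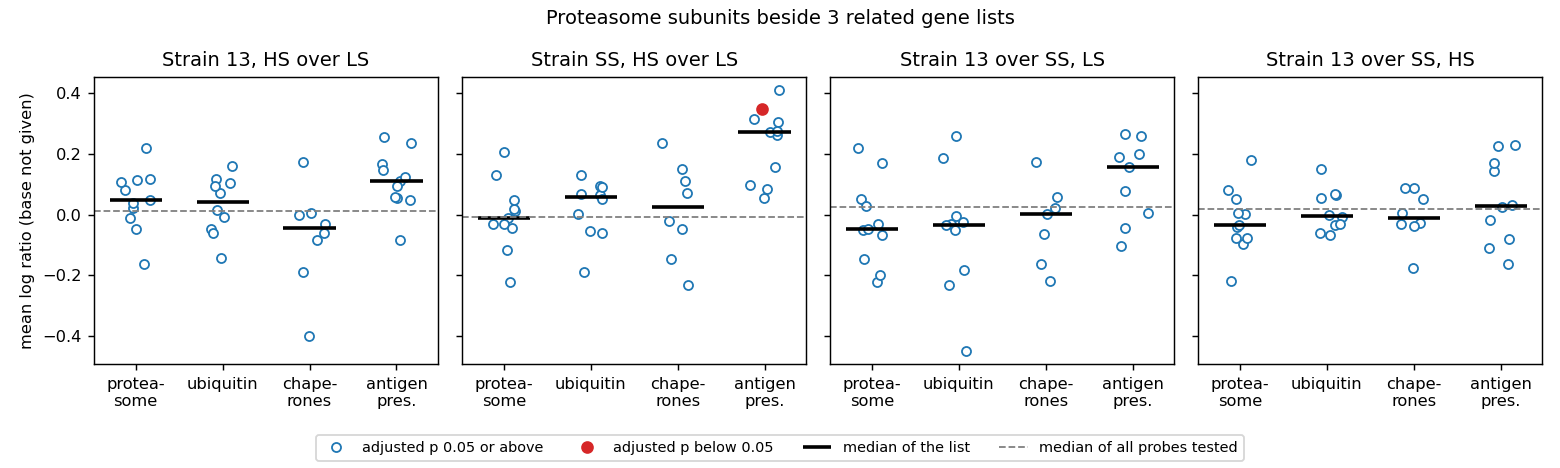
Mean log ratio of each gene of 4 lists in the 4 comparisons (panels), with genes of an adjusted p below 0.05 filled, list medians as black bars and the median of all probes tested as a dashed line. The subunits sit around the dashed line in each panel, and the antigen presentation list has a median of 0.27 in SS on HS.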

How the data were processed

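Rat kidney RNA was measured on 24 arrays with 2 channels each. Per the labels the 2 channels hold the RNAs compared, and the authors' deposited values are one log ratio per probe and array. Their log base, background correction and normalization are not stated in the labels or the file header. The array medians lay within 0.04 of 0, and values were used as deposited. Probes were named by the platform annotation, updated through RefSeq identifiers of assembly GRCr8, which changed 0 of the 11 subunit symbols. All arrays were read as having one channel order already: across 548 complete probes, which are not independent replicates, the 4 comparisons closed with r = 0.77 for the sum of forward and dye-swap arrays and 0.21 for their difference.

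The arrays of a replicate were averaged to 12 replicate values. Group means for the 4 comparisons were fitted with limma 3.58.1 in R 4.3.3 (lmFit, eBayes) and tested against 0, two-sided, on probes with at least 2 of 3 replicates, with Benjamini-Hochberg adjustment over all probes tested. The fit was run on simulated data with independent errors, which lack the shared RNAs and the correlations between the real replicates. The contrast of the HS effect between strains was the mean of its estimates from diet and from strain arrays. Alternatives left out replicates or arrays, added the replicate number as a block, rescaled or recentred arrays, changed the filter, fitted a comparison alone or used 1 orientation. The strain mean, the dye contrast and the omission of the LS array with the fewest values were chosen after seeing the data. Values by replicate are given for subunits that passed and for the 4 with the largest means in size in each comparison. From the other lists, genes named either passed or had one of the 2 largest means in size of a comparison. The members and lists were chosen with earlier results of these data known.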

Additional observations from a re-analysis of the deposited data

Results flagged for a closer look

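Of 43 sets of 4 to 6 arrays examined for the subunits, 1 held an array far from the others, while chance gives about 1 in 20. It was Psma2 in the SS diet comparison, with 0.23 on the forward array of replicate 2 against 0.01 on the next highest array. In Psma4, every replicate was above 0 in the diet comparison of strain 13 (mean 0.08) and below 0 in that of SS (mean -0.12), a difference of 0.20. In Psmc1, every replicate was above 0 between strains on LS (mean 0.22) and below 0 on HS (mean -0.08), a difference of 0.30. Replicate 1 of Psmc1 on LS had 0.54, and without that replicate the LS mean was 0.06. On HS every forward array of Psmc1 was above 0 and every dye-swap array below 0. Neither difference was tested alone, and the contrast over all 4 comparisons had limma adjusted p of 0.259 and 0.234. Both were picked out of all subunits because their replicates did not overlap between the comparisons. The share of all probes that separate in this way is not given here, so neither is read as a result about these subunits.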

How the results depend on the processing

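Outside the fits of a single orientation, 0 of 11 subunits passed in each of the 4 comparisons and in the contrast of the HS effect between strains under every alternative run. Forward arrays alone called 1 subunit in the SS diet comparison (Psmd4) and 1 each for the strains on LS (Psmb4) and HS (Psma2), and dye-swap arrays alone called 3 on HS. In these fits a dye effect does not cancel. With forward arrays the medians were 0.12 and 0.063 for the diets in strain 13 and SS, 0.017 and 0.17 for the strains on LS and HS and 0.12 for the contrast. With dye-swap arrays they were -0.077, -0.067, -0.12, -0.19 and -0.042 in the same order. Leaving out 1 replicate gave medians of 0.014 to 0.09 in strain 13, -0.01 to 0.0325 in SS, -0.0525 to -0.0075 for the strains on LS, -0.055 to -0.025 on HS and 0.0012 to 0.0512 for the contrast, with 0 called. For the strain mean, which called Psmb4, leaving out any 1 replicate called 0. With the replicate number as a block the medians were 0.047, -0.012, -0.048 and -0.035 for the 4 comparisons, with 0 called. Whether numbers pair the samples differed by comparison. Across probes, same-numbered deviations of the diet comparisons of strain 13 and SS correlated at 0.18, 0.13 and 0.19, those of SS by diet and the strains on HS at -0.62, -0.48 and -0.26, and the other 12 between -0.29 and 0.39. The block, 1 shift per number common to all comparisons, does not model negative correlations. Of 574 subunit values under the 12 other alternatives, 567 moved by less than the replicate SD and 33, none of them called, changed sign. The first count was largely fixed in advance and is no measure of stability. For subunits with all values, the changed filters, the block and the fit of a comparison alone keep the same mean. Leaving out 1 of 3 replicates always moves a comparison mean by less than their SD.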
